A study of Rattus norvegicus with 6 samples.

Results

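Messenger RNA of 80 chromatin regulators and high mobility group (HMG) genes was followed in AR42J, a rat cell line from an exocrine tumour of the pancreas, with and without the glucocorticoid dexamethasone. Members were the genes on the array whose symbol begins with a name of the histone deacetylase (Hdac, Sirt), lysine demethylase (Kdm), methyltransferase (Kmt, Setd, Ezh, with Suz12 and Eed), remodeller (Smarc, Chd), chromodomain (Cbx), bromodomain (Brd), HMG (Hmga, Hmgb, Hmgn) or H2A.Z (H2az) families. They make up 80 of 10411 genes with a single symbol and hold 98 probe sets. Each gene was read on 1 probe set, the one whose log2 signal averaged highest on the 6 arrays. Control cultures (n = 3) had medium with 5% serum alone for 48 h, and treated cultures (n = 3) the same medium with 100 nM dexamethasone. All were AR42J cells revived at passage 29 and plated for 24 h in 20% serum, and each culture was measured on 1 Affymetrix Rat 230A array. The experiment was carried out 3 times over 5 months, and the series' design describes 3 pairs, each with both conditions. Cultures of the same replicate number were taken as a pair. AR42J is a tumour line, and all results apply to this line at 1 dose and 1 time. The comparison asks which genes of this class differ in mRNA level between treated and control cultures.

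DNA in the nucleus is wrapped around histones, and chromatin proteins decide how accessible it is. Deacetylases remove acetyl groups from histone tails, methyltransferases and demethylases add and remove methyl groups, and proteins with bromodomains or chromodomains read these marks. SWI/SNF and CHD complexes move nucleosomes with energy from ATP. HMG proteins are small, abundant chromatin proteins that bend DNA or bind nucleosomes, and H2A.Z is a variant histone placed at promoters. Several of these genes, among them Ezh2 and members of the Hmgb and H2az families, are known to be more highly expressed in dividing cells. The glucocorticoid receptor recruits deacetylases and remodelling complexes to its target genes.

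Values are deposited signals of a probe set on a linear scale, in which every array has nearly the same trimmed mean, so they are relative to the array's total. In RNA from whole cultures, fewer cells that express a gene and less RNA per cell cannot be told apart. A log2 change is treated minus control and is given ± its SE. It comes from limma, as does the p-value adjusted over all probe sets tested, for which the threshold was 0.05. An array's background level was set at the top signal among 27 probe sets for bacterial control genes, 51.7 to 97.3 in control arrays and 83.7 to 115.9 in treated arrays. The number of arrays limits the precision. In these cultures 13 of 14 acinar markers on the array were above background on every array, and their summed signal was 85885 to 102254 in controls and 146201 to 162730 with dexamethasone. Of 12 stromal, endothelial and immune markers, 5 were above background on every array and 3 on no array (Vim, Kdr and Ptprc), with sums of 1295 to 1332 and 1522 to 1644. Of 8 glucocorticoid-responsive genes, 7 rose, and the receptor gene Nr3c1 fell.

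More members fell than rose with dexamethasone. Of the 80, 77 were bright enough to be tested, and 35 fell, 6 rose and 36 did not pass the threshold. Over all 9520 probe sets tested, 37.1% passed, 15.9% higher and 21.2% lower, and over 7051 genes with 1 probe set each 21.4% were lower. Among the 77, 45.5% were lower. The median log2 change of the 77 was -0.39, against -0.05 for all probe sets tested. Called changes reached 2-fold or more in 13 members, 11 lower and 2 higher (11.6% of all probe sets tested). In 47 of 77 members the signals of the 3 control and 3 treated arrays did not overlap, compared with 49.7% of all probe sets tested.

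The balance of directions depends on array scaling. With arrays scaled to their hybridization controls, which takes the median of all probe sets to -0.29, 2 members were higher and 45 lower. With quantile normalization (median 0.01) the counts were 7 and 34, and with centring on the 75th percentile (median 0.08) 8 and 31. The median of the 77 members was -0.64, -0.34 and -0.27 in these settings, so it stayed below that of all probe sets in each. No called member changed sign in any setting tried, and 25 of the 41 calls held in every setting in which the gene was tested. Of these 25, 23 were falls and 2 were rises, those of Hdac5 and Sirt2.

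The filter on dim probe sets bears on some of these counts. For 5 tested members (Ezh2, Hdac6, Smarcd3, Kmt5a and Kmt5c) the mean log2 signal reached the filter level of 147.6 in control cultures only, and for Hdac5 in treated cultures only. Among the 71 members that reached it in both groups, 5 rose and 31 fell. With no filter, 4 of 80 rose and 32 fell. Hmga2, Hdac4 and Brd1 were too dim to be tested. Hdac4 had signals of 141.2, 144.5 and 198.0 in controls and 53.1, 21.9 and 152.3 in treated cultures. Hmga2 was at 3.8 to 8.4 on all 6 arrays, below background throughout. Hdac4 was the nearest member below the filter, and Kmt5a and Hdac10 were nearest above it, with means of 176.5 and 151.3 in controls and 133.4 and 212.1 in treated cultures.

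**Figure D1:**
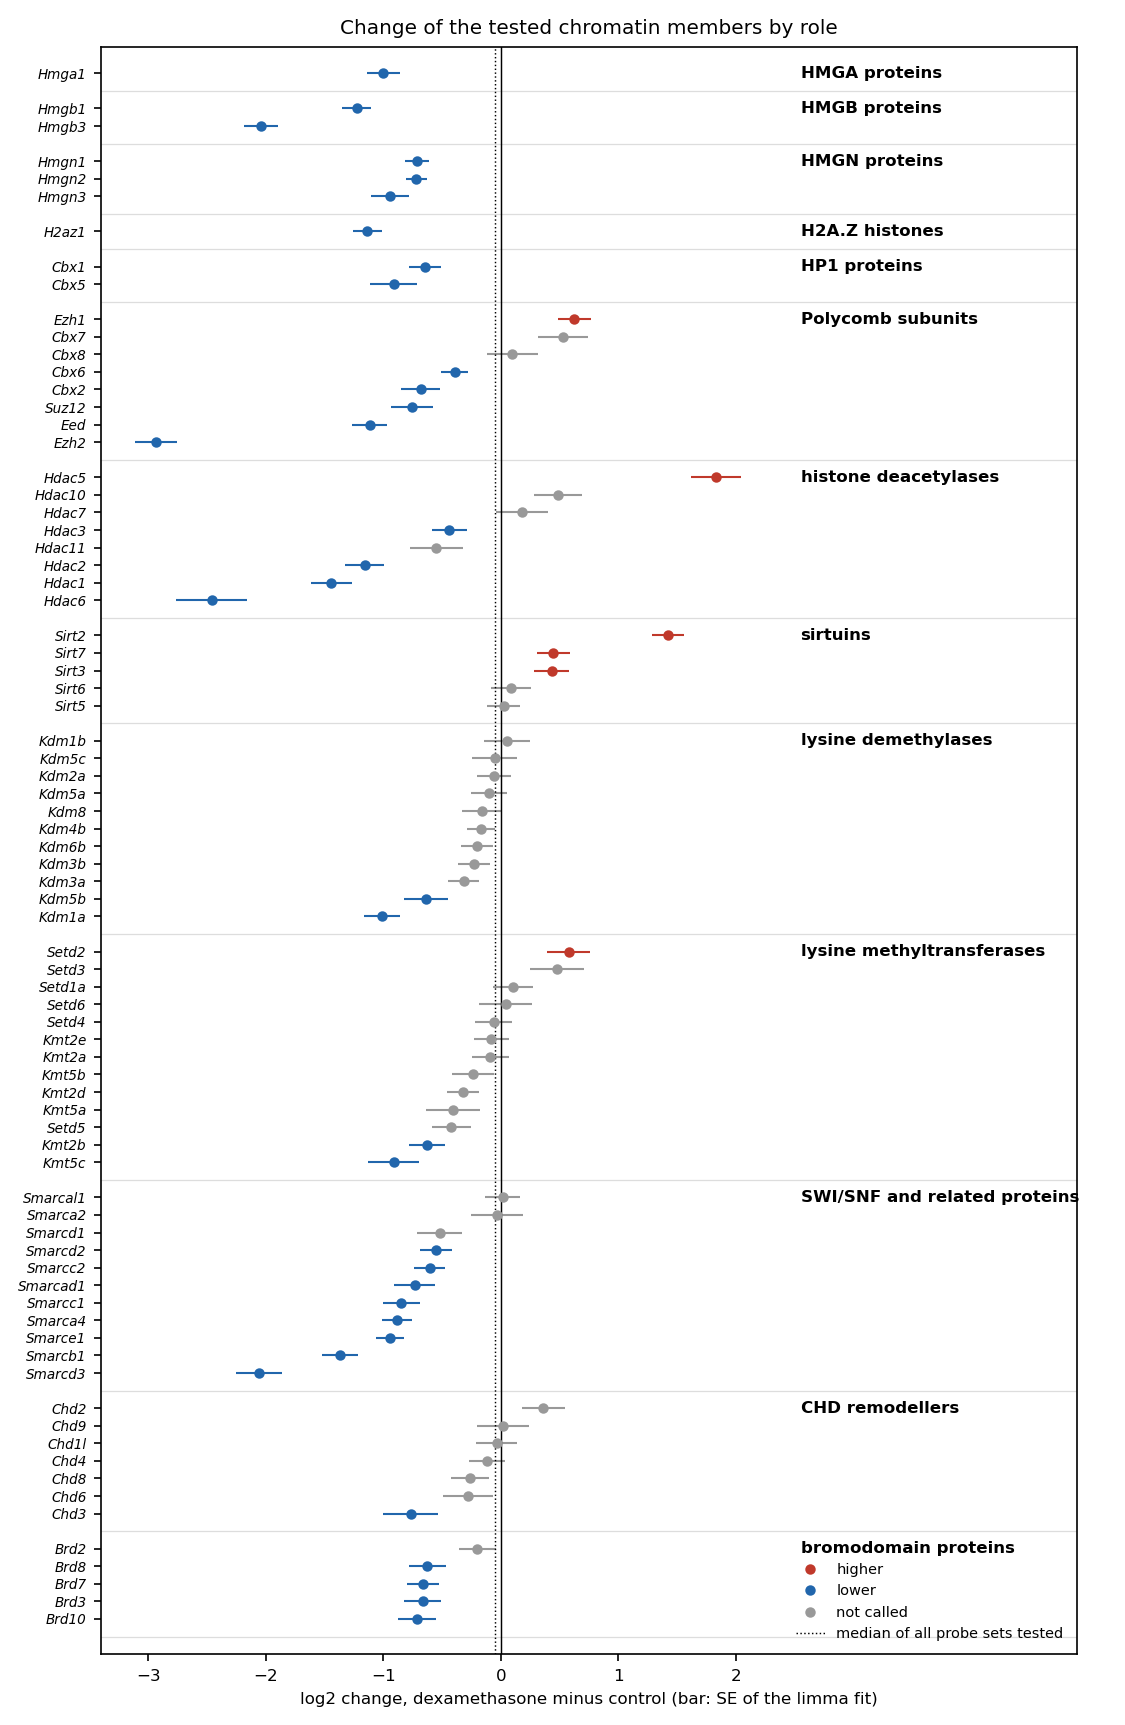
Log2 change (dexamethasone minus control, horizontal axis) of the 77 tested members, grouped by role, with the SE of the limma fit as bars; blue members were lower, red higher and grey not called at an adjusted p of 0.05. All tested HMG, H2A.Z and HP1 genes lie left of 0, Ezh2 lies farthest left at -2.93, and Hdac5 (1.83) and Sirt2 (1.42) lie farthest right.

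Promoters were available from RefSeq (build GRCr8) for 69 of the 80 members, as windows of 250 bases before to 50 bases after a gene's start, with the first listed window used where there were several. Shown here, to let the letters be read beside the changes, are the windows of the 4 members with the largest fitted falls (Ezh2, Hdac6, Smarcd3 and Hmgb3) and the 2 with the largest rises (Hdac5 and Sirt2). Capitals mark matches on either strand to motifs of E2F, of the cell cycle genes homology region (CHR) and of NF-Y. For E2F the letters searched were TTTGGCG, then the variant TTTCCCG, and also the variant TTTCGCG. For CHR they were TTTGAA or its variant TTCGAA, and for NF-Y the box CCAAT. The windows are chr4:77687134-77687433 (Ezh2, minus strand), chrX:17222925-17223224 (Hdac6, plus strand), chr4:11440950-11441249 (Smarcd3, plus strand), chrX:154340856-154341155 (Hmgb3, plus strand), chr10:87688005-87688304 (Hdac5, minus strand) and chr1:93181222-93181521 (Sirt2, plus strand), each printed 5′ to 3′ on the strand of the gene.
Ezh2: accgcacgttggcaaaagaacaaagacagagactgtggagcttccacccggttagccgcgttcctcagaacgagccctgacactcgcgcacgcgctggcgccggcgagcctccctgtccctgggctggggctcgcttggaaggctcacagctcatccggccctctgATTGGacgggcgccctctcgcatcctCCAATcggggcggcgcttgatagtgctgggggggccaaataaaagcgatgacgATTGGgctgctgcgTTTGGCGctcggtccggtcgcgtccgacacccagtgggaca
Hdac6: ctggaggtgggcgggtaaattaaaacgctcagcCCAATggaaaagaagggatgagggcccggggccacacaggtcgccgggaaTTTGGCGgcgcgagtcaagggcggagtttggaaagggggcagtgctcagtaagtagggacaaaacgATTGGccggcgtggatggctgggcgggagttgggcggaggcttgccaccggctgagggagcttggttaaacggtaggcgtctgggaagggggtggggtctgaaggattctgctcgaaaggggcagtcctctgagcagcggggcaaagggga
Smarcd3: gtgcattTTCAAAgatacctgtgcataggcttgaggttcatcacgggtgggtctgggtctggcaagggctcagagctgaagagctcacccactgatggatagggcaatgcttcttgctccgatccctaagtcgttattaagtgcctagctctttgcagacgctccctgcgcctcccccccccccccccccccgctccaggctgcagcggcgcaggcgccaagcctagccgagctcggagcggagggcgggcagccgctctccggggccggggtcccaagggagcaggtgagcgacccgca
Hmgb3: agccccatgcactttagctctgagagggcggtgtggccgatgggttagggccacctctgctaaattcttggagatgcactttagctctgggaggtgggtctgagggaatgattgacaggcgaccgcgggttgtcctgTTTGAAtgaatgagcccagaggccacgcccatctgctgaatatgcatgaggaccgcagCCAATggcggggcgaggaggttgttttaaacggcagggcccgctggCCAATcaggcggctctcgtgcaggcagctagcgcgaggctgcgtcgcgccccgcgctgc
Hdac5: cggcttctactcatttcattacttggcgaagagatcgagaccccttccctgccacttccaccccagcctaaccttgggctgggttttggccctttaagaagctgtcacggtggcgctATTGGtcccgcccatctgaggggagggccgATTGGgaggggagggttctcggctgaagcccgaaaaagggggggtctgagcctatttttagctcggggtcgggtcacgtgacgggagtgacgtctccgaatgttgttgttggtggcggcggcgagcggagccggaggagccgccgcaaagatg
Sirt2: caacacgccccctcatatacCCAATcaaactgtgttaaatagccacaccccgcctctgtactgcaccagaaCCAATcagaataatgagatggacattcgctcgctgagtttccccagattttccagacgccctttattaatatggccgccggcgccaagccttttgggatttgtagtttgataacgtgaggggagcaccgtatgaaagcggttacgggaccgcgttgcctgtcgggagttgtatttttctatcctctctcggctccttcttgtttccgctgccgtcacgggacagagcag

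Ezh2 and Hdac6 each hold 1 E2F form and Smarcd3 and Hmgb3 each hold 1 CHR form, while Hdac5 and Sirt2 hold neither. Of the other members that fell by more than 2-fold, Hdac1, Smarcb1, Hdac2 and Eed hold neither form. Hmgb1 and Kdm1a hold an E2F form, and H2az1 holds a CHR form. CCAAT boxes number 3 in Ezh2 and 2 in Hdac6, Hmgb3, Hdac5 and Sirt2, and Smarcd3 has none. An E2F form was found in 11 of 33 members that fell (33.3%), 4 of 28 not called (14.3%) and 0 of 5 that rose, against 5.89% of all 27457 promoter windows and 14 of 30 proliferation genes (46.7%). CHR forms were in 6 of the 33 that fell, 2 of the 28 and 1 of the 5, against 19.5% of all windows. The letters AGAACA, a form of the glucocorticoid response element arm, were in 5, 1 and 0 of these windows and in 20.1% of all, and the spaced palindrome ACANNNTGT in 0, 1 and 1 and in 6.60% of all. GC content was higher in members' windows (median 64.0%) than in all windows (52.3%), which bears on every such share: the GC box GGGCGG was in 81.2% of members' windows and 34.9% of all. A match is a string of letters and was not tested as a binding site.

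All 6 tested HMG genes fell, as did H2az1, beside 21.4% of all genes tested. H2az1, which encodes H2A.Z, had signals of 9907, 10257 and 10611 in control cultures and 4772, 5518 and 3868 with dexamethasone. Every treated culture was below every control culture for this gene (log2 change -1.13 ± 0.12, adjusted p = 0.000142). Hmgb3, an HMG-box protein that bends DNA and is known from embryonic and stem cells, went from 1349.6, 1096.3 and 1381.7 to 291.8, 286.8 and 351.8. Its log2 change of -2.04 ± 0.14 (adjusted p = 1.3e-05) was the largest of the HMG genes. Hmgb1, the widely expressed member of this family, was at 3710, 2648 and 3757 in controls and at 1364, 1233 and 1713 in treated cultures (-1.23 ± 0.12, adjusted p = 9.6e-05).

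Both HMGB genes were separated between groups in every culture, and Hmgb3 fell by more. The log2 ratio of Hmgb1 to Hmgb3 within an array was 1.39 ± 0.10 (SD, n = 3) in controls and 2.20 ± 0.09 with dexamethasone, with no overlap. An exact two-sided permutation test over the 6 arrays gave p = 0.10, the smallest this test allows with 3 against 3 (adjusted p = 0.16 over 14 pairs of members compared this way). Hmgb2, Cbx3, H2az2 and Hmgn5 lie on probe sets annotated with several symbols and were not analysed here.

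Hmga1, an architectural protein that binds AT-rich DNA, had signals of 856.6, 995.2 and 740.3 in controls and 432.7, 473.6 and 385.2 with dexamethasone (-1.0 ± 0.14, adjusted p = 0.000641). The HMGN genes encode proteins that bind the nucleosome itself. Hmgn2 stood at 9506, 10032 and 9928 in controls and at 5843, 6281 and 5790 in treated cultures (-0.72 ± 0.09, adjusted p = 0.000362). Hmgn1 went from 8720, 8980 and 8735 to 4654, 6350 and 5253 (-0.71 ± 0.11, adjusted p = 0.000982), and Hmgn3 from 803.7, 462.8 and 771.6 to 376.5, 305.0 and 352.3 (-0.94 ± 0.17, adjusted p = 0.00244). Groups did not overlap for any of these 4 genes. The ratios of Hmgn1 to Hmgn2 and of Hmgn2 to Hmgn3 did overlap between groups and changed by 0.01 (exact p = 1.0) and 0.22 (exact p = 0.60) on the log2 scale.

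**Figure D2:**
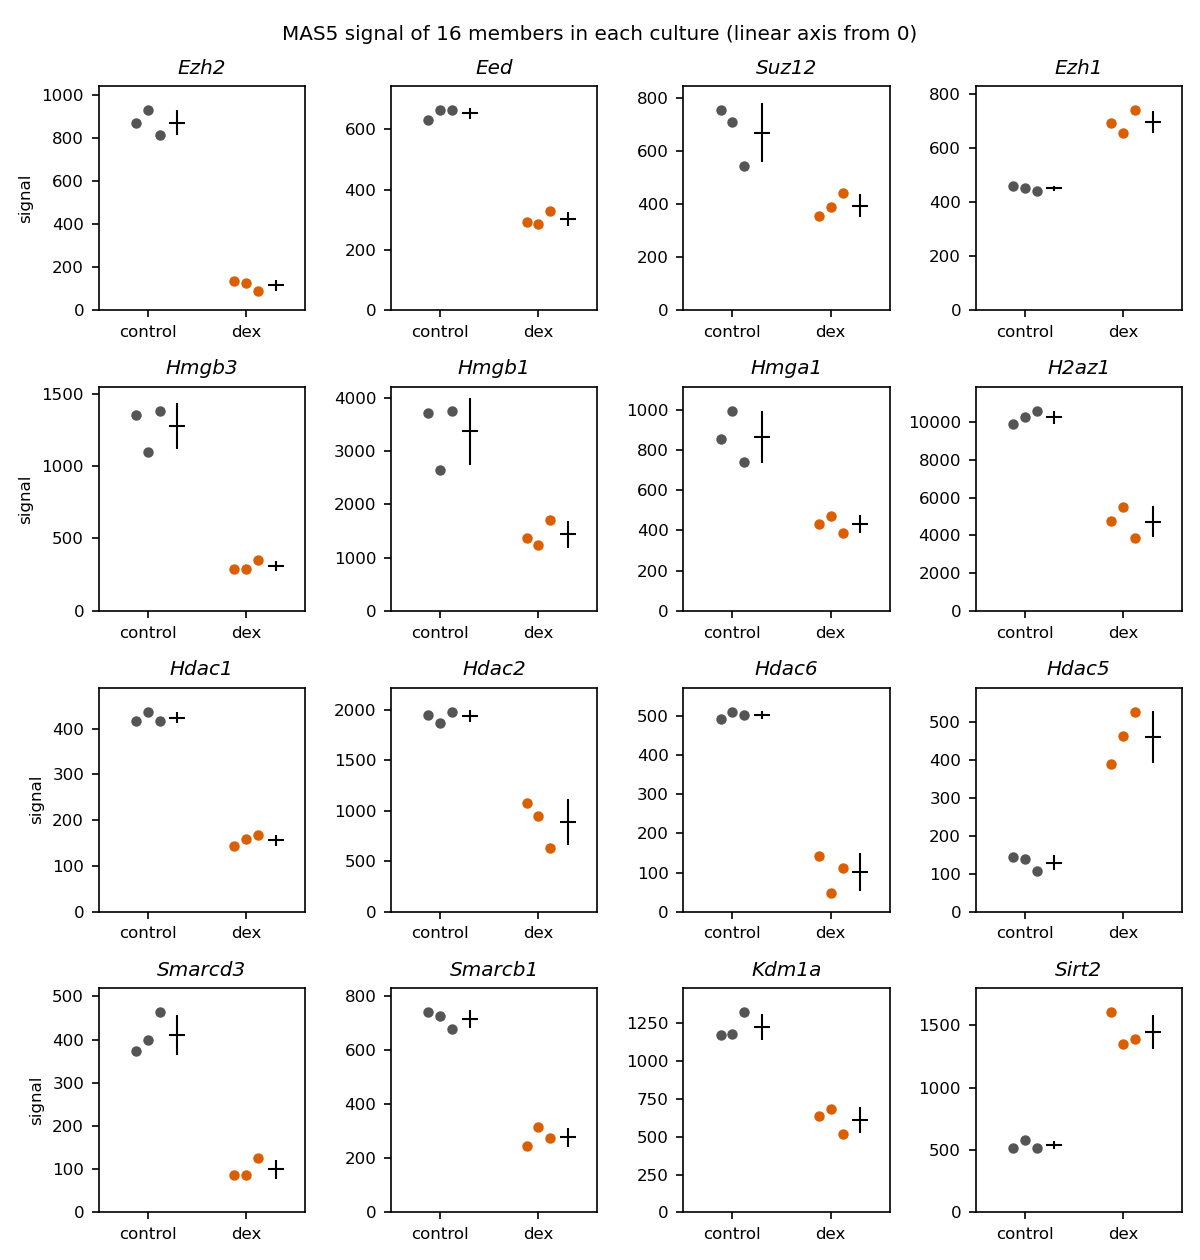
Signal of 16 members in each of 3 control (grey) and 3 dexamethasone (dex, orange) cultures on linear axes from 0, with the mean and SD beside each group. Ezh1, Hdac5 and Sirt2 are higher in every treated culture and the other 13 are lower in every treated culture.

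Subunits of Polycomb repressive complex 2 (PRC2), which methylates histone H3 at lysine 27, differed in direction between the alternative catalytic subunits. Ezh2, the catalytic subunit of dividing cells, had the largest fitted fall of all members, from 870.1, 929.7 and 812.8 to 136.4, 124.0 and 87.2 (log2 change -2.93 ± 0.18, adjusted p = 5.65e-06), and 2 of the 3 treated arrays were above background. Ezh1, the alternative catalytic subunit, was at 458.6, 454.4 and 442.4 in controls and at 692.2, 658.6 and 742.0 with dexamethasone. Each treated culture was thus above each control for Ezh1 (0.63 ± 0.14, adjusted p = 0.00877), a call lost with hybridization control scaling (0.38, adjusted p = 0.0678).

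Within an array the log2 ratio of Ezh1 to Ezh2 moved from -0.94 ± 0.08 to 2.61 ± 0.41, a difference of 3.56 (exact permutation p = 0.10, adjusted p = 0.16 over the 14 pairs). It was the largest change among the 14 pairs, and 3.03 after a pseudocount of 53.1 was added to the signals. The core partners fell by less than Ezh2. Eed, which binds the methylated tail, went from 630.5, 664.3 and 663.8 to 292.0, 285.7 and 328.2 (-1.11 ± 0.15, adjusted p = 0.000533). Suz12, which holds the complex together, went from 755.0, 709.2 and 544.1 to 353.4, 387.9 and 441.9 (-0.76 ± 0.18, adjusted p = 0.0113), a call lost without replicate 1 (adjusted p = 0.0731) and without replicate 2 (adjusted p = 0.0720). The ratios of Eed to Ezh2 and Suz12 to Ezh2 rose by 1.82 and 2.18 with no overlap between groups (exact permutation p = 0.10 each).

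Of the 4 tested chromodomain genes of Polycomb repressive complex 1, 2 fell and 2 did not pass, where 21.4% of all genes tested fell. Cbx2 fell from 440.8 ± 88.7 to 273.9 ± 52.5 (-0.68 ± 0.17, adjusted p = 0.0129), a call lost without replicate 1 (adjusted p = 0.0799) and without dexamethasone replicate 3 (adjusted p = 0.0533). Cbx6 fell from 2979 ± 91 to 2277 ± 197 (-0.39 ± 0.11, adjusted p = 0.0262), and its other probe set also fell (-0.52). The Cbx6 call was lost with 75th percentile centring (adjusted p = 0.0982), without an intensity trend, and without replicate 1 or 2. Cbx7 had signals of 189.9, 172.7 and 152.9 in controls and 233.5, 222.0 and 291.1 in treated cultures, which do not overlap. It did not pass (0.53 ± 0.21, adjusted p = 0.0794), but passed without the replicate block (adjusted p = 0.0489) and with quantile normalization or 75th percentile centring. The log2 ratio of Cbx6 to Cbx7 went from 4.12 ± 0.11 to 3.20 ± 0.12 (exact permutation p = 0.10), and Cbx8 differed by 0.10 ± 0.22.

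The HP1 genes, whose proteins read methylated lysine 9 of histone H3 in heterochromatin, both fell, where 21.4% of all genes tested did. Cbx5 went from 317.2, 262.0 and 260.9 to 169.2, 166.0 and 116.1 (-0.91 ± 0.20, adjusted p = 0.00776). Cbx1 went from 750.5, 918.4 and 803.5 to 472.1, 547.6 and 561.9 (-0.64 ± 0.14, adjusted p = 0.00684). Treated and control cultures did not overlap for either gene, and the ratio of Cbx1 to Cbx5 overlapped between groups (0.27, exact permutation p = 0.50).

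Among 8 tested deacetylases of the Hdac family, 4 fell, 1 rose and 3 did not pass. Shares of 12.5% higher and 50% lower stood beside 17.0% and 21.4% of all genes tested. The filter bears on these counts, since Hdac5 reached its level in treated cultures only and Hdac6 in control cultures only. The class I enzymes Hdac1 and Hdac2 are nuclear and act in shared corepressor complexes. Hdac1 stood at 416.4, 437.4 and 417.4 in controls and at 143.1, 158.9 and 166.8 with dexamethasone (-1.44 ± 0.17, adjusted p = 0.000316). Hdac2 went from 1950, 1868 and 1982 to 1074, 949.0 and 634.8 (-1.16 ± 0.17, adjusted p = 0.000818). Controls lay close together for both genes, every treated culture was lower, and the ratio of the pair overlapped between groups (-0.28, exact permutation p = 0.40). Hdac3, the class I enzyme of the NCoR complexes, fell by 0.44 ± 0.15 (adjusted p = 0.0440). That call was lost with quantile normalization (adjusted p = 0.0660), 75th percentile centring (adjusted p = 0.126), no filter or no intensity trend, and without replicate 1 (adjusted p = 0.195) or 3 (adjusted p = 0.128).

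Hdac6, a largely cytoplasmic enzyme that deacetylates tubulin, had one of the largest falls. Its signals were 491.9, 511.1 and 502.5 in controls and 143.3, 47.1 and 112.6 in treated cultures (-2.46 ± 0.30, adjusted p = 0.000338), with 1 of 3 treated arrays above background. Hdac5, a class IIa enzyme that shuttles between nucleus and cytoplasm, had the largest rise of all members. It went from 143.5, 138.7 and 106.0 to 389.0, 463.7 and 526.9 (1.83 ± 0.21, adjusted p = 0.000255). A second, dimmer Hdac5 probe set that was not tested read 55.6, 43.5 and 52.8 in controls and 80.0, 91.2 and 100.8 in treated cultures. The groups do not overlap on either probe set. Hdac7, of the same class, differed by 0.18 ± 0.22 with overlapping groups, and the log2 ratio of Hdac5 to Hdac7 rose from -0.88 ± 0.18 to 0.77 ± 0.47 (exact permutation p = 0.10). Hdac10 (0.49 ± 0.20, adjusted p = 0.0928) and Hdac11 (-0.55 ± 0.23, adjusted p = 0.0872) did not pass, although the 3 treated signals of each lay outside the range of controls.

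Among sirtuins, which use NAD to remove acyl groups, limma called 3 of 5 higher and 0 lower, with the same counts at an unadjusted p under 0.05. Shares of 60% higher and 0% lower stood beside 17.0% and 21.4% of all genes tested. Without the replicate block, or with hybridization control scaling, 1 of the 5 was called higher. Sirt2, a mainly cytoplasmic deacetylase, rose from 519.9, 579.0 and 518.5 to 1604, 1354 and 1388 (1.42 ± 0.14, adjusted p = 9.2e-05), with every treated culture far above every control. The other rises were small and rest on fewer settings. Sirt7, a nucleolar enzyme, was at 486.3, 672.2 and 391.1 in controls and at 620.7, 939.1 and 554.0 in treated cultures, so the groups overlap although each pair rose. Its change of 0.45 ± 0.14 (adjusted p = 0.0339) did not pass without the replicate block (adjusted p = 0.175), nor without any 1 of the 3 pairs (adjusted p = 0.0689 to 0.128). Sirt3, the main mitochondrial deacetylase, went from 364.5, 430.4 and 345.8 to 510.2, 590.3 and 441.8 (0.43 ± 0.15, adjusted p = 0.0473). Without the block its adjusted p was 0.0601, and without 1 pair 0.109 to 0.150. Both calls were lost with hybridization control scaling, where Sirt3 changed by 0.18 and Sirt7 by 0.20. Sirt5 (0.02 ± 0.14) and Sirt6 (0.09 ± 0.17) did not pass.

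Lysine demethylases remove methyl groups from histone tails. Of 11 tested, limma called 2 lower and 0 higher (3 lower and 0 higher at an unadjusted p under 0.05), and the other 9 had changes from -0.32 to 0.05. The share lower was 18.2%, beside 21.4% of all genes tested. Kdm1a (LSD1), which demethylates lysine 4 of histone H3 within the CoREST complex, went from 1173, 1179 and 1324 to 637.5, 681.3 and 517.7, with no overlap (-1.01 ± 0.15, adjusted p = 0.00109). Its paralogue Kdm1b differed by 0.05 ± 0.19, and the ratio of Kdm1a to Kdm1b fell by 1.06 on the log2 scale (exact permutation p = 0.10). Kdm5b, which acts on the same lysine, had controls of 957.6, 929.8 and 993.6 and treated signals of 415.7, 756.2 and 747.9. The first treated culture is the lowest, and without its pair the change of -0.64 ± 0.19 (adjusted p = 0.0278) became -0.35 (adjusted p = 0.142). That call was lost as well with 75th percentile centring, no filter and no intensity trend. Kdm3a, a demethylase of lysine 9, went from 1965 ± 85 to 1599 ± 324 and did not pass (-0.32 ± 0.13, adjusted p = 0.0962).

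Genes of the Kmt and Setd groups, taken as lysine methyltransferases by symbol alone, showed 1 rise and 2 falls among 13 tested, and 10 did not pass. Shares of 7.7% higher and 15.4% lower stood beside 17.0% and 21.4% of all genes tested. Setd2, which trimethylates lysine 36 of histone H3 in transcribed genes, went from 319.3, 366.1 and 331.8 to 475.6, 416.1 and 651.6 (0.58 ± 0.18, adjusted p = 0.0364). The third treated culture is the highest, and without pair 3 the change was 0.38 (adjusted p = 0.234). The Setd2 call was also lost without replicate 1, without a filter and with hybridization control scaling (0.33, adjusted p = 0.155). Kmt5c, a methyltransferase of histone H4, fell from 249.7, 271.0 and 276.1 to 124.5, 115.7 and 195.4 (-0.91 ± 0.22, adjusted p = 0.0112), and Kmt2b, of the family that methylates lysine 4 of histone H3, from 481.1 ± 60.5 to 313.6 ± 55.3 (-0.62 ± 0.15, adjusted p = 0.0126). Both falls lost their calls without replicate 1 or without replicate 2 (adjusted p = 0.0531 to 0.0668). The median of the 13 was -0.09, and 0.04 with 75th percentile centring. Setd3 gave different readings on its probe sets, 0.48 ± 0.23 on the brighter and -0.08 on the dimmer, and neither passed.

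Subunits of SWI/SNF (BAF) complexes slide and evict nucleosomes. Of 11 tested genes in the Smarc group, limma called 8 lower and 0 higher (9 lower and 0 higher at an unadjusted p under 0.05), with a median change of -0.73. The share lower was 72.7%, beside 21.4% of all genes tested. Smarcd3, counted among the 8, reached the filter level in control cultures only. Smarcb1, a core subunit, went from 740.2, 725.0 and 677.6 to 245.2, 314.2 and 273.8 (-1.37 ± 0.16, adjusted p = 0.000215). Smarce1 fell from 1920 ± 127 to 1000.2 ± 35.7 (-0.94 ± 0.12, adjusted p = 0.000401), Smarcc1 from 525.1 ± 28.0 to 293.4 ± 36.2 (-0.85 ± 0.16, adjusted p = 0.00367) and Smarcc2 from 1111 ± 58 to 732.5 ± 78.1 (-0.61 ± 0.13, adjusted p = 0.00784). All 4 were lower in every treated culture than in any control.

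The ATPases of the complex differed in their calls, which is not itself a test of a difference between them. Smarca4 (BRG1) went from 1854, 1968 and 1723 to 898.3, 1030.1 and 1085.6 (-0.88 ± 0.13, adjusted p = 0.000932). Of its other probe sets, 1 fell by 0.86 and 1 did not pass (-0.47, adjusted p = 0.0593). Smarca2 (BRM), the alternative ATPase, overlapped between groups, at 224.4, 198.1 and 228.4 and at 153.0, 222.8 and 276.9 (-0.04 ± 0.22, adjusted p = 0.918). The log2 ratio of Smarca2 to Smarca4 rose from -3.09 ± 0.20 to -2.24 ± 0.29, with every treated array above every control (exact permutation p = 0.10).

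The Smarcd genes encode alternative subunits of the same position. Smarcd3 (BAF60c), known from muscle and heart, went from 373.1, 398.1 and 463.3 to 86.9, 87.3 and 125.6 (-2.06 ± 0.19, adjusted p = 7.5e-05), with 2 of 3 treated arrays above background. Smarcd2 fell by 0.55 ± 0.13 (adjusted p = 0.0120; adjusted p = 0.0511 without replicate 3). Smarcd1 did not pass (-0.52 ± 0.19, adjusted p = 0.0600), but passed with hybridization control scaling (-0.77) and without dexamethasone replicate 3 (-0.60). Smarcad1, a helicase outside these complexes, fell by 0.73 ± 0.17 (adjusted p = 0.0109), but did not pass without replicate 1 (adjusted p = 0.0655) or 2 (adjusted p = 0.0659), and Smarcal1 differed by 0.02 ± 0.15.

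Among 7 tested CHD remodellers limma called Chd3 lower and 0 higher (1 lower and 0 higher at an unadjusted p under 0.05). That is 14.3% lower, beside 21.4% of all genes tested. Chd3 and Chd4 are the alternative ATPases of the NuRD complex, which couples remodelling to deacetylation. Chd3 went from 322.9, 253.7 and 244.3 to 168.7, 113.5 and 212.6 (-0.77 ± 0.23, adjusted p = 0.0305), a call lost with 75th percentile centring (adjusted p = 0.0578), no filter, and without replicate 1 or 2. Chd4 overlapped between groups and differed by -0.12 ± 0.15 (adjusted p = 0.574). The ratio of Chd3 to Chd4 changed by -0.65 (exact permutation p = 0.10). Changes of the other 5 ranged from -0.28 (Chd6) to 0.36 (Chd2).

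Of 5 tested bromodomain genes limma called 4 lower and 0 higher (4 lower and 0 higher at an unadjusted p under 0.05), by similar amounts. The share lower was 80%, beside 21.4% of all genes tested. Brd7, a subunit of the PBAF form of SWI/SNF, went from 940.8, 886.1 and 927.8 to 559.9, 591.5 and 590.8 (-0.66 ± 0.13, adjusted p = 0.00510). Brd10 fell by 0.72 ± 0.16 (adjusted p = 0.00841), Brd3, a BET protein, by 0.66 ± 0.16 (adjusted p = 0.0103), and Brd8 by 0.62 ± 0.16 (adjusted p = 0.0151). The calls of Brd3 and Brd8 were lost without replicate 2 (adjusted p = 0.0772 and 0.0884). Brd2, the other BET protein measured, overlapped between groups (653.4 ± 109.8 and 569.5 ± 101.0, -0.20 ± 0.16, adjusted p = 0.360).

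**Figure D3:**
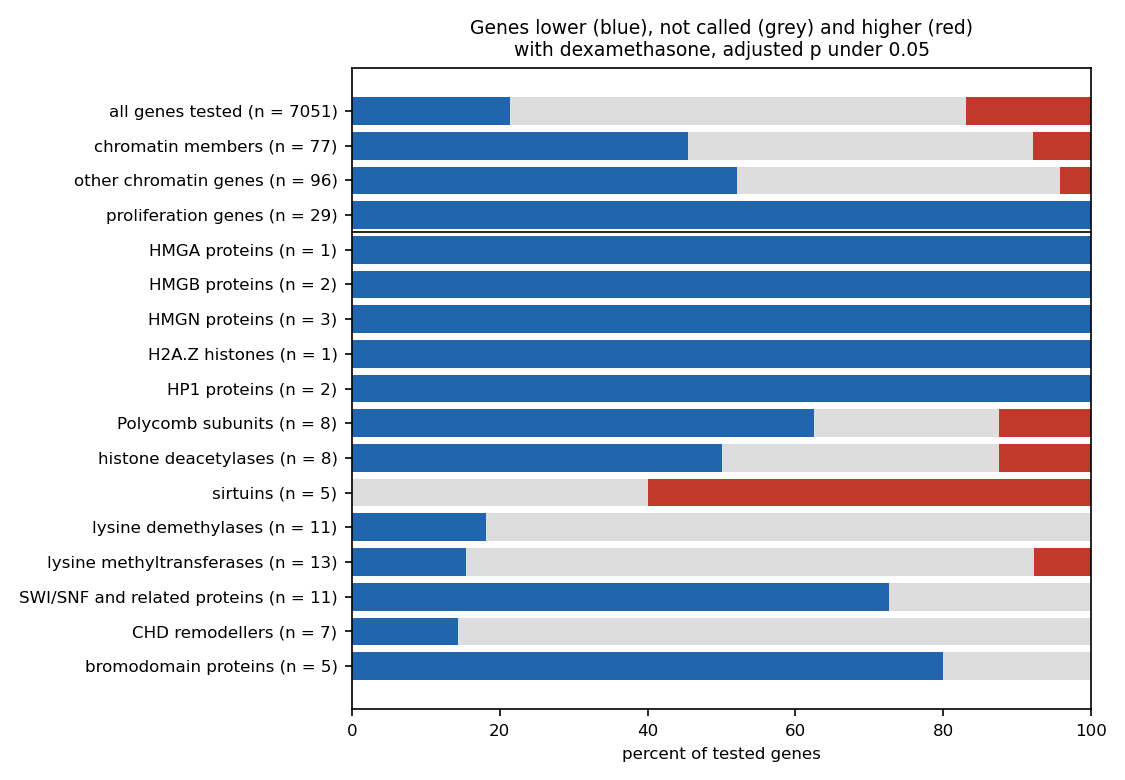
Percent of tested genes that were lower (blue), not called (grey) or higher (red) with dexamethasone, for all 7051 genes with 1 probe set each, the 77 tested members, 96 other chromatin genes, 29 proliferation genes and each role group of the members. The 77 members had 45.5% lower and 7.79% higher, sirtuins had no lower gene, and every proliferation gene was lower.

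Beyond these families, a list of 159 other chromatin genes was examined, of which 111 had a probe set with a single symbol and 96 were tested. Of the 96, 50 fell, 4 rose and 42 did not pass, with a median of -0.42. With no filter on dim probe sets, 48 of 111 fell and 4 rose. Among the tested genes the largest fitted falls were in Dnmt1, the maintenance DNA methyltransferase, Rcor2, a scaffold of CoREST, Lmnb1, the gene of lamin B1, and Nasp, a chaperone of histones H3 and H4. Rcor2 went from 637.2, 962.3 and 626.6 to below background on all treated arrays, at least 7.34-fold lower (adjusted p = 3.8e-06), and Dnmt1 was likewise at least 9.77-fold lower. Such bounds set the mean log2 signal of controls against the background level of the treated arrays. Rcor2 and Dnmt1 reached the filter level in control cultures only. Lmnb1 went from 2277, 2220 and 2549 to 379.2, 276.8 and 325.2 (-2.85 ± 0.14, adjusted p = 2.3e-06), and Nasp from 842.2 ± 82.3 to 188.8 ± 61.4 (-2.21 ± 0.23). Chaf1a, a subunit of chromatin assembly factor 1, missed the filter on mean log2 signal and was not tested. It read 862.3, 868.6 and 834.8 in controls and 14.6, 12.3 and 18 with dexamethasone, below background on all treated arrays. Asf1b, another histone chaperone left out by the filter, read 296.6 ± 33.5 and 74.9 ± 19.1. These genes were chosen for mention once their values were known.

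The 4 rises were in Kat2b (PCAF, a histone acetyltransferase, 0.77 ± 0.14, adjusted p = 0.00288), Brms1 (0.74 ± 0.15, adjusted p = 0.00464), H2aj, a variant H2A histone (0.60 ± 0.15, adjusted p = 0.0149), and Sap30, a subunit of the Sin3 complex (0.48 ± 0.15, adjusted p = 0.0301). By class, 10 of 12 tested histone and nuclear architecture genes, 8 of 11 histone chaperones and 2 of 12 acetyltransferases and their partners fell, where 21.4% of all genes tested did. Differences between classes were not tested. In the remaining classes 3 of 5 DNA methylation genes, 5 of 13 deacetylase partners, 7 of 17 methyltransferases and partners, 7 of 12 Polycomb partners and 8 of 14 remodelling subunits fell.

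Members and listed genes were also read together by complex, a grouping made after the values were seen. Of 5 tested core genes of PRC2, Ezh1 rose and Ezh2, Eed, Suz12 and Rbbp7 (-1.20) fell, and the accessory subunit Phf19 was at least 3.51-fold lower. All 4 tested CoREST genes fell (Kdm1a, Hdac1, Hdac2 and Rcor2). Rcor1 was too dim to be tested, with means of 155.3 in controls and 82.1 with dexamethasone. Rcor2, Phf19, Ezh2 and the BAF subunit Smarcd3 reached the filter level in control cultures only, so the filter bears on the counts that include them. For NuRD, 7 of 11 fell (Chd3, Hdac1, Hdac2, Rbbp7, Mbd3 at -0.89, Mta1 at -0.59 and Mta2 at -0.67), while Chd4, Mbd2, Mta3 and Gatad2a did not pass. Hdac1 and Hdac2 are counted for CoREST as well, and Rbbp7 for PRC2, so the counts of these complexes are not separate. Among all genes tested, 21.4% were lower. In BAF and PBAF, 12 of 16 fell, among them Actl6a (-1.38) and Pbrm1 (-0.86), and Smarca2, Smarcd1, Arid1a and Dpf2 did not pass.

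Proliferation genes moved further in the same direction. Of 29 tested, limma called 29 lower and 0 higher, with the same counts at an unadjusted p under 0.05, and the median was -2.47. Among all genes tested, 21.4% were lower. Several of the 29, among them Mki67, Mcm6, Cdk1 and Cks2, reached the filter level in control cultures only. Ccne1, Aurka, Bub1b and Pola1 were too dim to be tested. With no filter, all 33 on the array were called lower. The largest fitted falls were in Cks2 (-4.95), Mcm6 (-4.85), Cdk1 (-4.35) and Pclaf (-4.31), all regulators or parts of DNA replication and mitosis. Cks2, Mcm6 and Cdk1 were above background on 1 of 3 treated arrays each, so their sizes and order are not precise. The summed signal of the 33 proliferation genes on the array was 50722 to 51603 in controls and 8921 to 9571 with dexamethasone, and 21 of them were above background on all arrays. The part of this difference in the falls of chromatin genes was not tested.

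**Figure D4:**
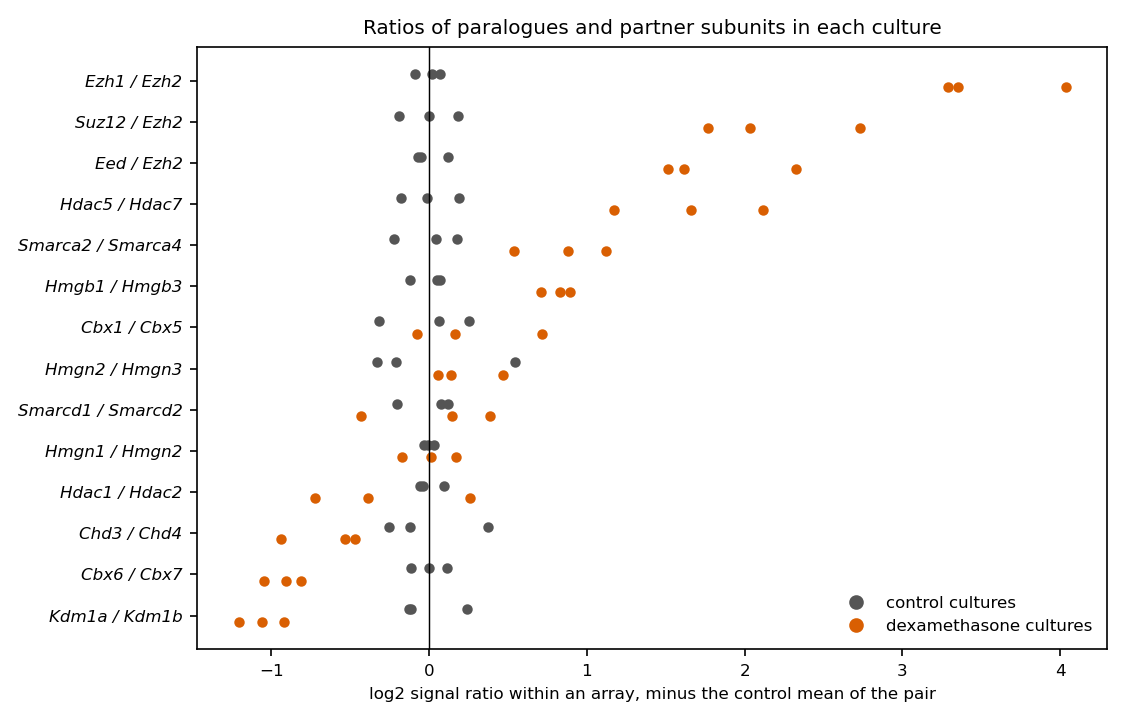
Log2 ratio of the signals of 2 members within each array, minus the control mean of that pair, for 3 control (grey) and 3 dexamethasone (orange) cultures. Ratios of Ezh1, Suz12 and Eed to Ezh2 shift furthest to the right, those of Kdm1a to Kdm1b, Cbx6 to Cbx7 and Chd3 to Chd4 shift left, and 5 pairs overlap between the groups.

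Of the 14 pairs, 9 had ratios that did not overlap between control and treated arrays, each with an exact p of 0.10 and an adjusted p of 0.16. The ratios of Ezh1, Eed and Suz12 to Ezh2 share 1 Ezh2 probe set, near background with dexamethasone, so they are not separate observations. Signals of 49.7% of single probe sets tested did not overlap either, and the share among unrelated pairs is not given here. This permutation test leaves the pairing of cultures out and cannot go below 0.10 with 3 against 3, so it cannot separate any of the 14 at 0.05. A ratio within an array does not depend on a scaling factor of that array. Its level compares different probe sets, so its change between groups was read. Such a change describes unequal changes of its members' signals in these arrays, without showing which of the members changed.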

How the data were processed

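Total RNA of each culture was hybridised to 1 Affymetrix Rat 230A array. Per the labels, the authors computed the deposited signal, an intensity on a linear scale, with MAS5 in GCOS; versions and scaling settings are not given in the sources used here. Its trimmed mean was about equal on all arrays, so a change is relative to the array total. Of 15866 probe sets other than controls, 12783 had 1 gene symbol, 312 several and 2771 none in the platform annotation. Signals were log2-transformed (zeros set to 0.1), and probe sets at or above the 40th percentile of mean log2 signal (147.6) were tested by moderated linear models with an intensity trend (limma 3.58.1, R 4.3.3), dexamethasone against control with the replicate number as a block and Benjamini-Hochberg adjustment. The design text describes independent pairs, and equal replicate numbers were taken to mark them; deviations from group means correlated at -0.10, 0.11 and 0.21 within pairs 1, 2 and 3. The p-values cover the spread between these cultures. Ratios of members were compared by exact permutation. The procedure was tested on simulated data.

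Members and lists were chosen with earlier results of these data known. Genes named were the 12 largest falls and 6 rises among members, members of the compared pairs, the 4 largest falls and 4 rises of the chromatin list, the 4 largest falls of the proliferation list, and others so that members are accounted for. Alternatives were no block, quantile normalization, centring on the 75th percentile, hybridization control scaling, other filters, a pseudocount, no intensity trend, a second probe set and leaving out replicates. Promoter windows were read with Python 3.11.15.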

Additional observations from a re-analysis of the deposited data

How the results depend on the processing

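Counts of members called, 6 higher and 35 lower, were 5 and 35 without the replicate block, which ended the calls of Sirt3 and Sirt7 and changed no other call except that Cbx7 passed. Scaling to the hybridization controls gave 2 higher members and 2 higher genes of the chromatin list. Leaving out 1 pair gave 3 to 4 higher and 27 to 34 lower members, and 2 to 3 higher and 36 to 45 lower genes of the chromatin list. The ratio of Hmgb1 to Hmgb3 changed by 0.66 with quantile normalization and 0.67 with a pseudocount, that of Ezh1 to Ezh2 by 3.03 with a pseudocount, and that of Cbx6 to Cbx7 by -1.08 with quantile normalization and -0.80 without replicate 3. The cause of these shifts was not tested. No called member changed sign in any setting run. Signals near background, as for Ezh2, Hdac6 and Smarcd3 with dexamethasone, limit the size of those falls.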
